A study of Mus musculus with 21 samples.

Results

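The 10 transcripts described here encode tau kinases or their activators, measured in the forebrains of 21 mice: the glycogen synthase kinase 3 isoforms Gsk3a and Gsk3b, the cyclin-dependent kinase Cdk5 with its activators Cdk5r1 and Cdk5r2, the tyrosine kinase Fyn, and the microtubule affinity-regulating kinases Mark1, Mark2, Mark3 and Mark4. The genes were chosen by name, as symbols matched to the Ensembl mouse identifiers of the count and FPKM tables, and all 10 were found among the 55401 genes of the count table, of which 37538 had at least 1 count. The rule itself used no measured value.

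Tau is a microtubule-binding protein of axons that detaches from microtubules and becomes prone to aggregate when it is heavily phosphorylated. GSK3 is a constitutively active kinase that is inhibited by phosphorylation near its amino terminus, and it phosphorylates many of the tau sites that are followed in tauopathy. CDK5 has no activity of its own and depends on p35 (Cdk5r1) or p39 (Cdk5r2), and cleavage of p35 by the protease calpain leaves the longer-lived p25. The MARK kinases phosphorylate the microtubule-binding repeats of tau, and Fyn phosphorylates its tyrosines and is carried to dendritic synapses with it.

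The E2H, E3H and E4H mice (3 per group) carried human APOE2, APOE3 or APOE4 in place of mouse Apoe on both chromosomes, in a C57BL6 background. The tau lines, 4 mice each of PS/E2H, PS/E3H and PS/E4H, had the same APOE alleles and were also heterozygous for the PS19 transgene, human tau with the P301S mutation driven by the mouse prion promoter. The PS19 line itself was kept on a B6/C3H background. The PS19 mice were collected when both hindlimbs were paralysed, whereas the parental mice were collected at a set adult age without paralysis. The transgene, end-stage disease, the age at death and the genetic background of the PS19 line therefore cannot be told apart. In the paper's survival cohorts PS/E3H mice reached paralysis later than PS/E2H and PS/E4H mice. Within the PS19 mice, and in the tests of whether the PS19 difference varies by allele, APOE allele and age therefore cannot be told apart. The study methods name only male mice for E2H, E3H and PS/E3H and include females among E4H, PS/E2H and PS/E4H, and the labels used here do not give the sex of a mouse, so sex did not enter any fit. Each group comparison addresses whether an APOE allele, or the paralysed PS19 state on one allele, goes with a different level of these kinase transcripts.

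Library totals ranged from 59265459 to 75932183 counts (median 63751715), and every member had at least 2856 counts in every mouse. Levels of one gene between mice are given as CPM, counts divided by TMM-adjusted library sizes. Reads assigned to mouse Apoe were at 9.83 to 16.5 CPM in all 21 mice. Mouse Mapt, the tau gene, lay between 420 and 504 CPM in the PS19 mice and between 425 and 505 CPM in the parental mice, so its counts did not distinguish transgene carriers. Neuronal markers such as Snap25 (257 to 339 FPKM) were high in every forebrain. Of 6 cerebellum and hindbrain markers, Cbln1 (2.83 to 8.80 FPKM) and En2 (0.166 to 1.12 FPKM) had counts in every mouse, while Hoxb8 was at 0 counts in 20 and Hoxb5 in 11 of 21 mice. Principal components were taken over the genes with a mean of at least 1 CPM. On these, E2H replicate 2 and PS/E2H replicate 2 stood apart on the second component (0.558 and 0.462), PS/E2H replicate 4 on the third (0.737), and PS/E3H replicate 1 lay nearest to the parental mice of all PS19 mice on the first (0.0261). Comparisons that include APOE2 mice were also fitted without the 3 APOE2 libraries, with 2 mice left in each of E2H and PS/E2H, and PS/E3H relative to E3H without PS/E3H replicate 1.

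Promoter sequence was matched in RefSeq (GRCm38.p6, 250 bases before and 50 bases after the transcription start) for 7 of the 10 members, not for Cdk5, Cdk5r1 or Mark4. The promoter of Mark2 is shown because Mark2 had the widest range of group means of all members, and that of Mark3, a close relative, because Mark3 passed no test. Mark2 lies on the minus strand at chr19:7341811-7342110 and Mark3 on the plus strand at chr12:111574271-111574570. Both are written in the direction of transcription, with the GC box in capitals (GGGCGG, or CCGCCC where it lies on the other strand).
Mark2: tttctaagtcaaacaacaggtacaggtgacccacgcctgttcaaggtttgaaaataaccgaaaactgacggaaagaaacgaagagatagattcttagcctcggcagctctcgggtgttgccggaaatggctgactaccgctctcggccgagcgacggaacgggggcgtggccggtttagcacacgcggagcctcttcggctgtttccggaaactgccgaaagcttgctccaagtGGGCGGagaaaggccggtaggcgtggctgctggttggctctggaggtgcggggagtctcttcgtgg
Mark3: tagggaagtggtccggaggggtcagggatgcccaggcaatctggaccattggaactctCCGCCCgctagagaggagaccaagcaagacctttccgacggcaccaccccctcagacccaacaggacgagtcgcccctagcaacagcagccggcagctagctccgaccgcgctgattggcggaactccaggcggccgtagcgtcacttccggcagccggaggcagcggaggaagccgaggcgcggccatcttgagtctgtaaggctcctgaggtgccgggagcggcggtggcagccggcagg
Each promoter held 1 GC box, and 35.7% of the 32851 promoters in the table held at least 1 on either strand. The Mark2 window had 57.3% G and C with 25 CpG dinucleotides, and the Mark3 window 66.7% with 25. The match is a description of the letters only.

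Transcript levels were compared between genes per length, as FPKM. Over 21 mice, Gsk3a was highest at 70.4 ± 5.51 FPKM (SD), and Cdk5r2 was next at 65.0 ± 9.11 FPKM, but Gsk3a exceeded Cdk5r2 in only 17 of 21 mice. Cdk5r1 followed at a mean of 46.7 FPKM and Cdk5 at 40.0 FPKM, with Cdk5r1 above Cdk5 in 18 of 21 mice. Fyn at 24.6 FPKM and Mark1 at 17.7 FPKM came next, and both lay above the gene below them in all 21 mice. Gsk3b at 14.9 FPKM exceeded Mark4 at 11.1 FPKM in 19 of 21 mice. Mark2 at 8.82 FPKM and Mark3 at 6.29 FPKM closed the order without overlap within any mouse. The order thus had its only inversions between Gsk3a and Cdk5r2, between Cdk5r1 and Cdk5, and between Gsk3b and Mark4.

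**Figure D1:**
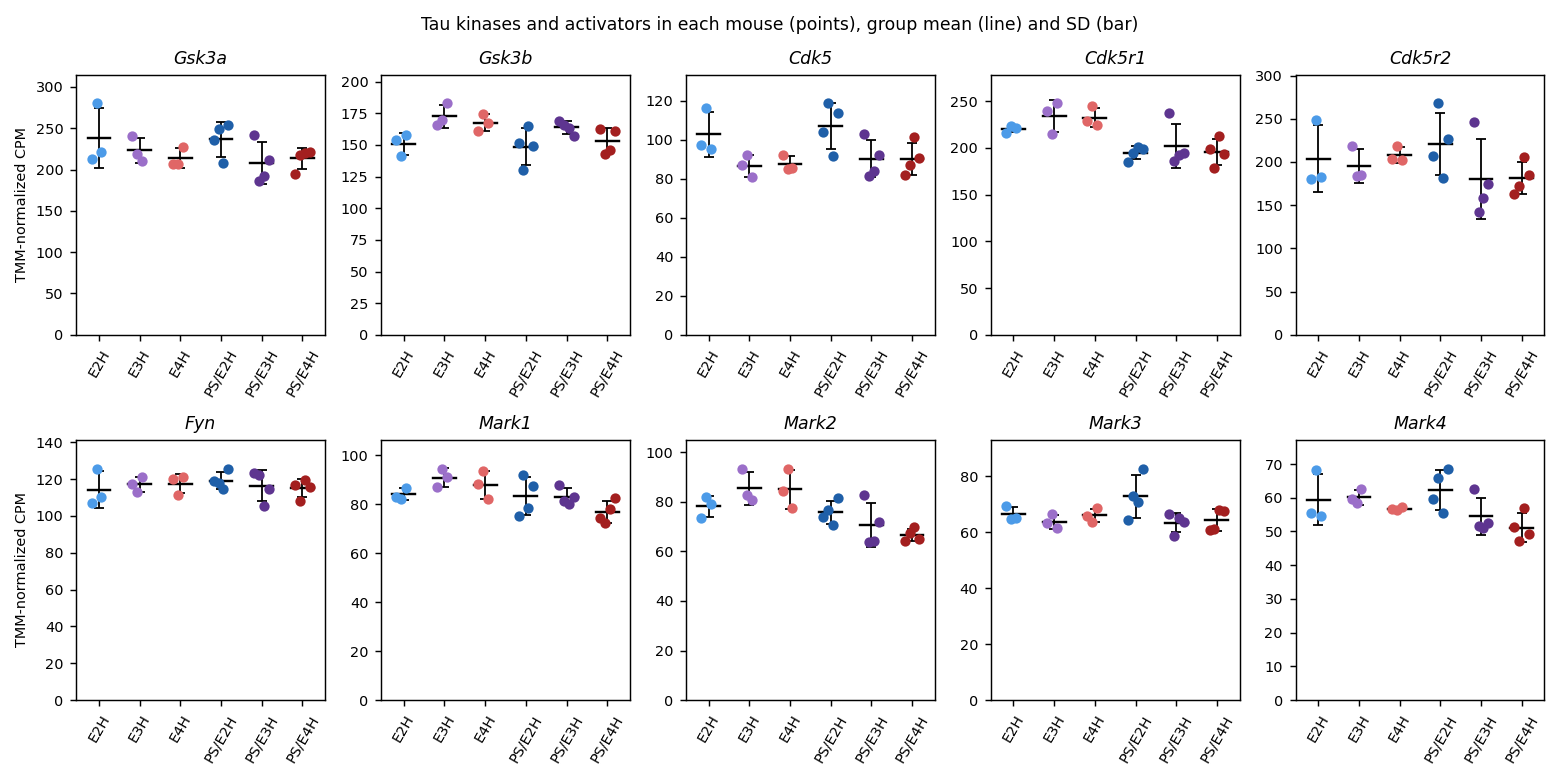
TMM-normalized CPM of the 10 members by group, with 1 point per mouse, the group mean as a line and the SD as a bar, each axis starting at 0. The 4 PS/E4H mice sit between 64.2 and 69.7 for Mark2, all below the 3 E4H mice (77.6 to 93.3), while the groups overlap for Fyn.

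The spread of group means was narrow for every member. Mark2 had the widest, 0.36 on the log2 scale between E3H (highest) and PS/E4H (lowest), and Cdk5 was second at 0.30 between PS/E2H and E3H. Fyn had the narrowest, 0.06, a smaller range than in almost all other tested genes (percentile 0.171 of all genes). The widest member range lay at percentile 33.7 of all genes. These percentiles were not matched for level, and the members lay at percentiles 83.0 to 98.6 of all genes by mean FPKM. They do not show how the members compare with genes of like level. The largest log2 fold change of a member in the 9 pairwise comparisons was -0.36, short of a fold of 2.

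In paralysed PS19 mice the members called lower were Mark2 and Cdk5r1, and they fell by at most 22.1%. Both passed the threshold, a Benjamini-Hochberg adjusted p under 0.05 in edgeR's quasi-likelihood test over all tested genes, in PS/E4H relative to E4H and in a fit of all 21 mice with APOE allele and PS19 genotype as terms. That is 2 of 10 members in PS/E4H relative to E4H, where 15.6% of all tested genes were called, and 2 of 10 over the 3 alleles, where 21% were called. The members' share was thus near that of all genes called in either direction. Of the 10 members, 9 had a negative log2 fold change in PS/E4H mice, with a median of -0.15 beside a median of -0.0023 over all tested genes. Of the lists followed below, 9 neuron markers had a median of -0.135 and 12 microtubule-associated proteins one of -0.218. The median was -0.0716 for 33 other tau kinases, -0.0764 for 23 tested regulators of the members and 0.00317 for 26 tau phosphatase subunits. A negative median was thus not particular to the members. Counting only genes called lower, the background to the 2 called members was 6.98% and 9.63%. With a fold of at least 2 also required, 0 members were called in either, against 2.98% and 2.6% of all genes. No member passed in PS/E3H relative to E3H (5.37% of all genes called) or in PS/E2H relative to E2H (0.752% called). There the members' median log2 fold change was -0.12 and 0.02, and 2 and 1 members had an unadjusted p under 0.05 (21.4% and 10.7% of all genes). DESeq2 called no member in either.

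Mark2 (ENSMUSG00000024969, chr19:7275396-7341860, minus strand, GRCm38) encodes the MARK family kinase also called Par-1b, which phosphorylates the repeat domain of tau and acts in cell polarity. In E4H mice Mark2 was at 84.3, 93.3 and 77.6 CPM, and in PS/E4H mice at 64.2, 67.4, 69.7 and 65.0 CPM. All PS/E4H mice lay below all E4H mice, as 13.8% of all genes did in that comparison. Mark2 fell by 22.1% (log2 fold change -0.36, SE 0.0701, 95% interval -0.52 to -0.20, adjusted p = 0.00847). In forebrain tissue, fewer cells of a type and less RNA per cell cannot be told apart.

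On the other alleles Mark2 did not pass the test. E3H mice had 93.1, 82.8 and 80.6 CPM and PS/E3H mice 82.6, 63.7, 64.3 and 71.8 CPM, and the highest PS/E3H mouse, replicate 1, overlapped the parental range. The log2 fold change was -0.29 (SE 0.0986, edgeR adjusted p = 0.123). E2H mice had 73.4, 81.9 and 79.1 CPM and PS/E2H mice 73.9, 76.8, 70.8 and 81.5 CPM, with a log2 fold change of -0.05 (95% interval -0.24 to 0.14, edgeR adjusted p = 0.905), and of -0.06 without the 3 libraries that stood apart (adjusted p = 0.828). The E2H mice had a lower mean (78.1 ± 4.30 CPM) than the E3H mice (85.5 ± 6.64 CPM), but the 2 groups overlapped and Mark2 was not called between them (edgeR adjusted p = 0.494). Over the 3 alleles together Mark2 fell by 14.5% (log2 fold change -0.23, SE 0.0555, edgeR adjusted p = 0.00519).

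The difference between alleles in the Mark2 response did not pass the test. The PS19 difference was 0.31 lower on the log2 scale in APOE4 than in APOE2 mice (interaction -0.31, SE 0.106, 95% interval -0.54 to -0.08), with an unadjusted p of 0.0103 and an edgeR adjusted p of 0.376, and without the 3 libraries it was -0.28 (adjusted p = 0.633). For APOE4 relative to APOE3 and for APOE2 relative to APOE3 no member had an unadjusted p under 0.05 (3.81% and 5.72% of all genes). None of the 10 members passed in any of the 3 interaction tests, by edgeR or by DESeq2. Over all genes edgeR called none (0% in each). DESeq2 called 0.346% of all genes for APOE4 relative to APOE2, 0.0221% for APOE4 relative to APOE3 and 0.0277% for APOE2 relative to APOE3. Mark2 was the single member with an unadjusted p under 0.05 in the APOE4 and APOE2 interaction, against 10.1% of all genes.

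Cdk5r1 (ENSMUSG00000048895, chr11:80477023-80481184, plus strand) encodes p35, the activator that tethers CDK5 to membranes. In E4H mice Cdk5r1 was at 229, 244 and 224 CPM, and in PS/E4H mice at 198, 178, 212 and 193 CPM. All PS/E4H mice lay below all E4H mice, as for 13.8% of all genes. Cdk5r1 fell by 16.2% in PS/E4H mice (log2 fold change -0.26, SE 0.0700, edgeR adjusted p = 0.0341). That call was the less firm of the 2: it was lost when any one of the 3 E4H mice, PS/E4H replicate 2 or PS/E4H replicate 4 was left out (adjusted p 0.0194 to 0.162 over the 7 such fits), and it was also lost with no filter on low counts (adjusted p = 0.052) and with limma on log2(FPKM + 1) (adjusted p = 0.0791).

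On the other alleles Cdk5r1 was also lower in PS19 mice on average, without a call, and the PS19 difference in APOE4 mice minus that in APOE2 mice was -0.08 on the log2 scale (95% interval -0.28 to 0.12, edgeR adjusted p = 0.831). E3H mice had 240, 215 and 247 CPM and PS/E3H mice 237, 186, 193 and 194 CPM, where replicate 1 alone overlapped the parental mice (log2 fold change -0.22, SE 0.0927, edgeR adjusted p = 0.200). E2H mice had 216, 223 and 221 CPM and PS/E2H mice 185, 195, 201 and 199 CPM, with no overlap, as for 5.05% of all genes (log2 fold change -0.18, SE 0.0722, edgeR adjusted p = 0.391, and -0.17 with adjusted p = 0.416 without the 3 libraries that stood apart). Over the 3 alleles Cdk5r1 fell by 13.7% (log2 fold change -0.21, SE 0.0439, 95% interval -0.30 to -0.12, edgeR adjusted p = 0.00126). Among 9 parental mice the values ran from 215 to 247 CPM (median 224), and among 12 PS19 mice from 178 to 237 CPM (median 194). The calls of Mark2 and Cdk5r1 over the 3 alleles held whichever of the 21 mice was left out, with adjusted p at most 0.0164 for Mark2 and 0.00472 for Cdk5r1.

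**Figure D2:**
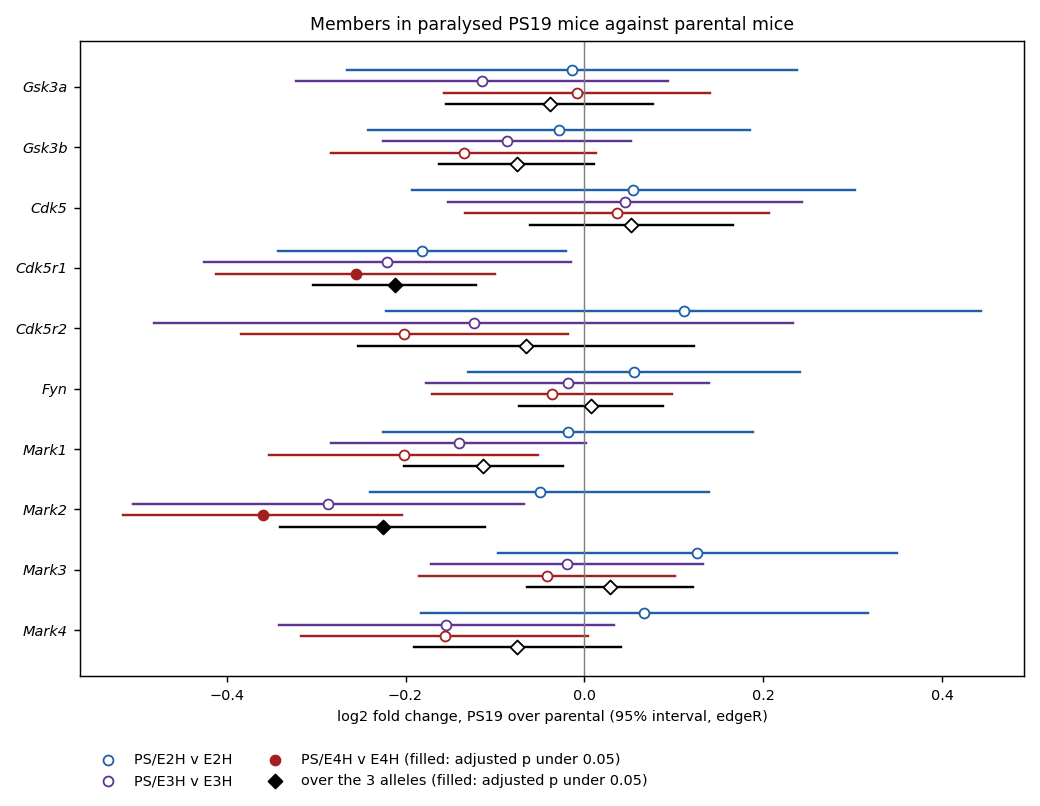
Log2 fold change of each member in PS19 over parental mice for each APOE allele (circles) and over the 3 alleles (diamonds), with the 95% interval from edgeR and filled symbols where the adjusted p was under 0.05. Mark2 and Cdk5r1 have filled symbols for PS/E4H (-0.36 and -0.26) and over the 3 alleles (-0.23 and -0.21). The intervals of Gsk3a, Gsk3b, Cdk5, Fyn, Mark3 and Mark4 include 0 in every comparison shown.

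Cdk5 itself, the catalytic subunit, did not pass with PS19: the log2 fold change over the 3 alleles was 0.05 (95% interval -0.06 to 0.17, edgeR adjusted p = 0.564), and PS19 and parental mice overlapped (81.6 to 119 against 80.9 to 116 CPM). Cdk5r2, which encodes p39, varied more between mice than any other member in PS/E3H, from 142 CPM in replicate 2 to 247 CPM in replicate 1. Its log2 fold change was -0.20 in PS/E4H (SE 0.0822, edgeR adjusted p = 0.128) and -0.07 over the 3 alleles (95% interval -0.25 to 0.12, adjusted p = 0.679). Expressed per length, the Cdk5r1 to Cdk5 ratio of FPKM ran from 1 to 1.59 in parental mice (median 1.29, n = 9) and from 0.855 to 1.26 in PS19 mice (median 1.11, n = 12). These ranges overlapped with the alleles pooled, and also between E2H (1 to 1.212) and PS/E2H mice (0.8554 to 1.14). All PS/E3H mice (1.098 to 1.203) lay below all E3H mice (1.215 to 1.593). All PS/E4H mice (1.065 to 1.259) lay below all E4H mice (1.29 to 1.498). The Cdk5r2 to Cdk5 ratio ran from 1.44 to 1.99 in parental and from 1.35 to 1.86 in PS19 mice.

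The GSK3 isoforms did not pass in any PS19 comparison. Gsk3a lay between 207 and 280 CPM in parental and between 186 and 254 CPM in PS19 mice (log2 fold change over the 3 alleles -0.04, 95% interval -0.16 to 0.08, edgeR adjusted p = 0.693). Gsk3b lay between 141 and 183 CPM in parental and between 130 and 169 CPM in PS19 mice (log2 fold change -0.08, 95% interval -0.16 to 0.01, edgeR adjusted p = 0.225). In FPKM, Gsk3a exceeded Gsk3b by a median ratio of 4.62 in parental and 4.75 in PS19 mice. Fyn had the tightest interval around 0 of all members: its log2 fold change over the 3 alleles was 0.01 (95% interval -0.07 to 0.09), with 107 to 126 CPM in parental and 106 to 125 CPM in PS19 mice.

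Of the other MARK kinases, Mark1 came nearest to a call. E4H mice had 88.1, 93.4 and 82.1 CPM of Mark1 and PS/E4H mice 74.2, 72.2, 78.0 and 82.3 CPM, so that 1 PS/E4H mouse reached just into the E4H range (log2 fold change -0.20, SE 0.0676, edgeR adjusted p = 0.0700, DESeq2 adjusted p = 0.0389). Over the 3 alleles the log2 fold change of Mark1 was -0.11 (SE 0.0430, edgeR adjusted p = 0.0648, range 0.00336 to 0.0948 over its alternatives). Without E2H replicate 2, PS/E2H replicate 2 and PS/E2H replicate 4, the libraries that stood apart, Mark1 was called over the 3 alleles (log2 fold change -0.16, edgeR adjusted p = 0.00336), in a fit that called 25.4% of all genes. Mark4 had a log2 fold change of -0.16 in PS/E4H (adjusted p = 0.176) and 0.07 in PS/E2H (adjusted p = 0.904), and Mark3 one of 0.03 over the 3 alleles (95% interval -0.06 to 0.12). As a share of the summed FPKM of Mark1 to Mark4, Mark2 ran from 19.6% to 23.1% in parental and from 18.4% to 20.5% in PS19 mice.

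PS/E3H replicate 1 bore on the PS/E3H comparison. It held the highest PS/E3H value in CPM of all 10 members, not only of those called below. It also had the highest summed neuron markers of that group (1206 against 1064 to 1077 FPKM in the other 3 mice). Its summed astrocyte markers were the lowest (471 against 672 to 725 FPKM). Without it, 4 of 10 members were called lower in PS/E3H relative to E3H: Mark2 (log2 fold change -0.37, edgeR adjusted p = 0.0128), Cdk5r1 (-0.31, adjusted p = 0.0129), Mark4 (-0.23, adjusted p = 0.0436) and Cdk5r2 (-0.31, adjusted p = 0.0492). That fit called 12.4% of all genes in either direction, against 5.37% with the mouse. The mouse was singled out for lying nearest to the parental mice, so leaving it out favoured lower PS/E3H values in advance. The 4 calls are therefore no separate evidence of a PS19 difference. Leaving out any other mouse of this comparison gave no member call. Adjusted p over the 7 fits that each left out 1 mouse ran from 0.0128 to 0.412 for Mark2 and from 0.0129 to 0.458 for Cdk5r1.

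Marker genes of several cell types moved with PS19 beside these transcripts. The summed FPKM of 9 neuron markers ran from 1133 to 1236 in parental and from 1007 to 1206 in PS19 mice, and in E2H (1139 to 1162) and PS/E2H (1063 to 1122) the groups did not overlap. Of the 9 neuron markers, 4 were called lower over the 3 alleles, among them Snap25 (log2 fold change -0.20, edgeR adjusted p = 0.00171), and 2, the interneuron genes Gad1 and Gad2, were called higher. The 6 astrocyte markers summed to 244 to 308 FPKM in parental and 471 to 863 in PS19 mice, and all 6 were called higher over the 3 alleles. The 8 microglia markers summed to 124 to 173 and 242 to 487 FPKM, with 7 called higher, and the 6 oligodendrocyte markers to 692 to 935 and 801 to 1271 FPKM, with 4 called higher. The sums of 4 endothelial markers overlapped (17.3 to 26.3 and 14.4 to 26.9 FPKM), with Kdr called lower (log2 fold change -0.59, edgeR adjusted p = 0.000442) and Pecam1 higher (0.27, adjusted p = 0.0198). Of 4 choroid plexus markers (sums of 316 to 551 and 283 to 866 FPKM) Aqp1 was called higher (0.55, adjusted p = 0.00974). None of 5 T cell markers was called (sums of 2.53 to 3.73 and 2.10 to 3.98 FPKM), and Cd4 and Trac had counts in all 21 mice while Cd3d was at 0 counts in 15. Of 4 pituitary markers (sums of 0.787 to 7.46 and 0.519 to 3.44 FPKM) Pomc had counts in all 21 mice, Gh and Cga were at 0 counts in 15, and Prl, at 0 counts in 13, was called lower (adjusted p = 0.00734). The part of these marker differences in the lower Mark2 and Cdk5r1 was not tested.

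**Figure D3:**
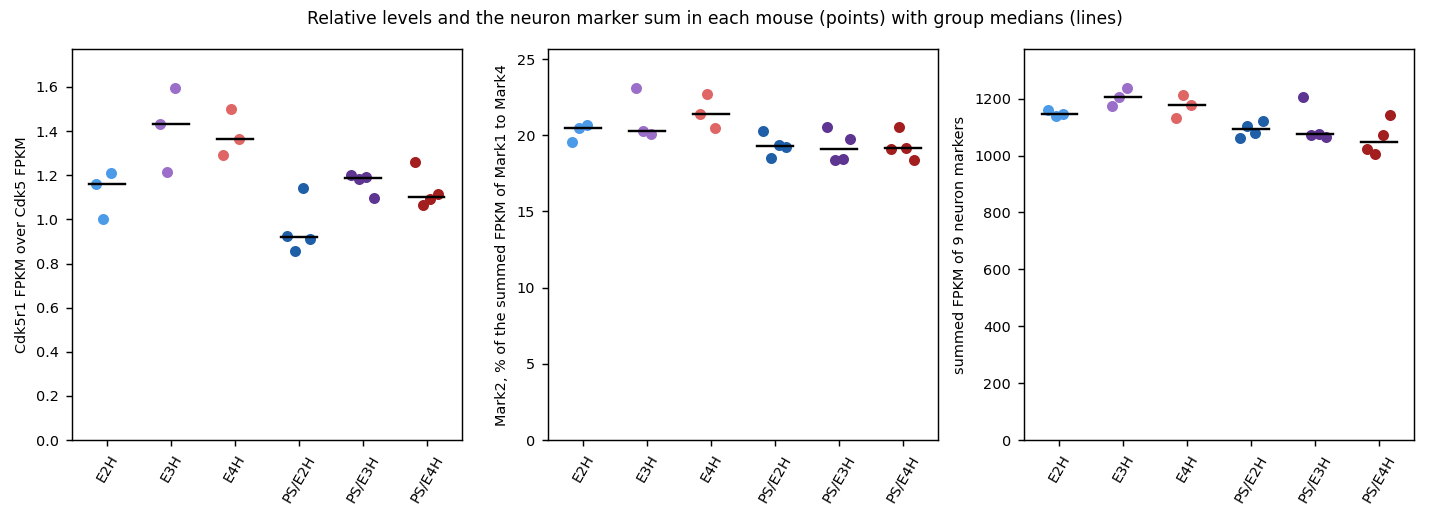
The Cdk5r1 to Cdk5 ratio of FPKM, Mark2 as a percentage of the summed FPKM of Mark1 to Mark4, and the summed FPKM of 9 neuron markers, with 1 point per mouse and group medians as lines, each axis starting at 0. The median Cdk5r1 to Cdk5 ratio is 1.37 in E4H and 1.10 in PS/E4H mice, and PS/E3H replicate 1 has the highest neuron marker sum of the PS19 mice (1206 FPKM).

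APOE alleles were compared within the parental mice and within the PS19 mice, and no member passed in any of the 6 comparisons. The shares of all genes called were 0.178% for E2H and E3H, 0.162% for E4H and E3H, 0.216% for E4H and E2H, 0.113% for PS/E2H and PS/E3H, 0.0197% for PS/E4H and PS/E3H and 0.119% for PS/E4H and PS/E2H. At an unadjusted p under 0.05 there were 2, 0, 1, 2, 0 and 4 members in these comparisons, in this order, beside 14.1%, 6.67%, 12.4%, 11.7%, 6.51% and 12.3% of all genes. DESeq2 called no member in any of them. The members at chromosome 7, Mark4 and Gsk3a, lie 0.237 Mb and 5.53 Mb from Apoe, the replaced gene, and neither was called in any of the 6. The E4H and E3H mice were closest, with member log2 fold changes between -0.08 and 0.09 and 95% intervals that together spanned -0.21 to 0.26.

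Cdk5 (ENSMUSG00000028969, chr5:24418241-24423530, minus strand) had the largest member difference between E2H and E3H mice. It was at 97.2, 116 and 95.1 CPM in E2H mice and at 87.1, 92.2 and 80.9 CPM in E3H mice, without overlap, as for 12.9% of all genes (log2 fold change 0.24, SE 0.0957, edgeR adjusted p = 0.322, and 0.15 with adjusted p = 0.403 without E2H replicate 2). In the PS19 mice, which are different animals, it was at 104, 119, 91.8 and 114 CPM in PS/E2H and at 103, 81.6, 84.1 and 92.1 CPM in PS/E3H, and the groups overlapped (log2 fold change 0.24, SE 0.0984, edgeR adjusted p = 0.414, and 0.11 with adjusted p = 0.999 without PS/E2H replicates 2 and 4). In a fit of parental and PS19 mice together, chosen after these values were seen, Cdk5 was called higher in APOE2 than in APOE3 mice (log2 fold change 0.25, SE 0.0661, 95% interval 0.11 to 0.38, edgeR adjusted p = 0.0441), 1 of 10 members, where 3.31% of all genes were called. The highest Cdk5 values of both APOE2 groups, 116 and 119 CPM, came from E2H replicate 2 and PS/E2H replicate 2. Without these and PS/E2H replicate 4, the log2 fold change was 0.13 (95% interval -0.00499 to 0.27, edgeR adjusted p = 0.553) and 0.226% of all genes were called. Leaving out 1 mouse at a time, Cdk5 stayed called in 6 of 21 fits (edgeR adjusted p 0.00933 to 0.123), and of the other alternatives only DESeq2 kept it (adjusted p = 0.0151). In APOE4 relative to APOE2 mice over both backgrounds, the log2 fold change of Cdk5 was -0.24 (edgeR adjusted p = 0.0939, DESeq2 adjusted p = 0.0303).

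**Figure D4:**
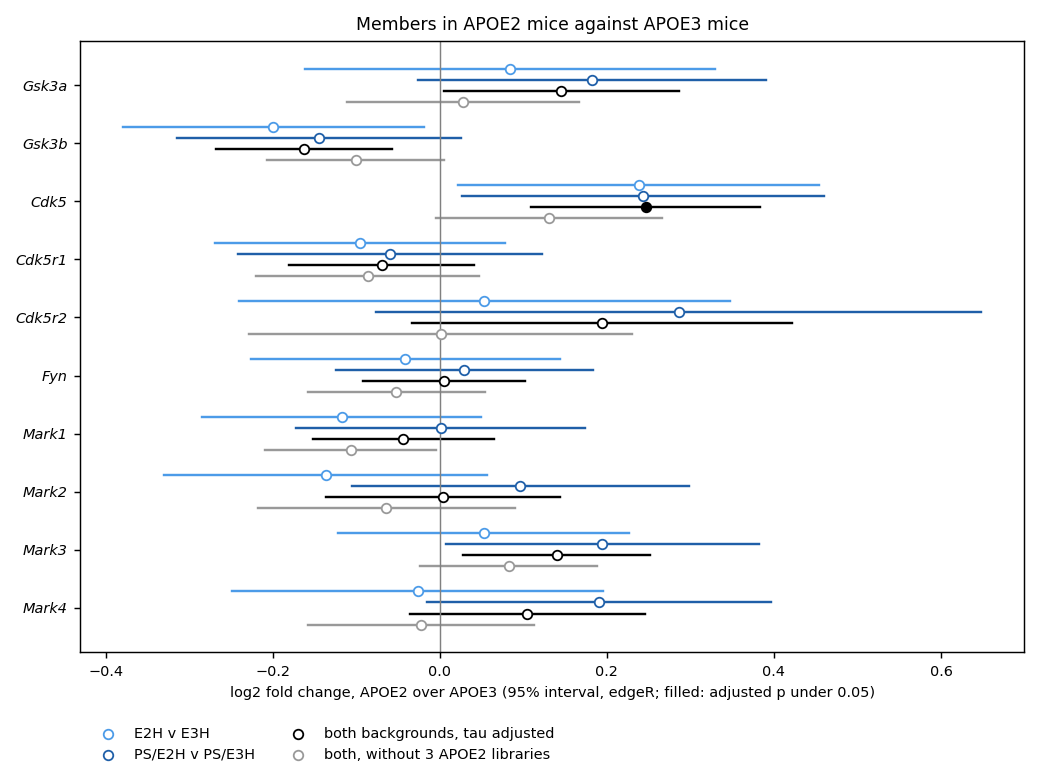
Log2 fold change of each member in APOE2 over APOE3 mice with the 95% interval from edgeR, for parental mice, PS19 mice, both together with PS19 genotype as a term, and both without 3 APOE2 libraries that stood apart on principal components, filled where the adjusted p was under 0.05. Cdk5 is filled only in the fit of both together (0.25), and its value without the 3 libraries is 0.13.

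Gsk3b had the opposite sign in APOE2 mice. E2H mice had 154, 141 and 158 CPM against 166, 169 and 183 CPM in E3H mice, without overlap, as for 10.5% of all genes (log2 fold change -0.20, SE 0.0798, edgeR adjusted p = 0.321, and -0.15 with adjusted p = 0.367 without E2H replicate 2). PS/E2H mice ranged from 130 to 165 CPM and PS/E3H mice from 157 to 169 CPM (log2 fold change -0.14, edgeR adjusted p = 0.463, and -0.06 with adjusted p = 0.999 without PS/E2H replicates 2 and 4), and over parental and PS19 mice together the log2 fold change was -0.16 (SE 0.0508, edgeR adjusted p = 0.0698; DESeq2 adjusted p = 0.0235). Without the 3 libraries that stood apart it was -0.10 (edgeR adjusted p = 0.557). Mark4 had the smallest unadjusted p of the members between PS/E4H and PS/E2H (0.00823), with 47.1 to 57.0 and 55.4 to 68.6 CPM, and an edgeR adjusted p of 0.309. Mark2 in the same mice did not overlap, with 64.2 to 69.7 CPM in PS/E4H and 70.8 to 81.5 CPM in PS/E2H, as for 3.35% of all genes, and had an edgeR adjusted p of 0.355. Without PS/E2H replicates 2 and 4, the edgeR adjusted p of this comparison was 0.955 for Mark4 (log2 fold change -0.18) and 0.959 for Mark2 (-0.13).

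The pattern over the 21 mice was compared as the mean absolute difference of centred log2 CPM. The comparison used the 18957 tested genes with counts in every mouse, the member itself among them. The genes nearest to Mark2 were Ripor1 (0.0532), Fam131b (0.0572) and Rtn1 (0.0575), against a median over genes of 0.239. Nearest to Cdk5 were Cdipt (0.0518), Sult4a1 (0.0531) and Mlf2 (0.0535), and nearest to Cdk5r2 were Epn1 (0.0743), Ppp1r37 (0.0747) and Fscn1 (0.0768).

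Other genes of tau phosphorylation were followed as 4 lists. Among 33 other tau kinases, 7 were called lower and 2 higher over the 3 alleles, where 21% of all tested genes were called and 9.63% were called lower. Sgk1, a serum- and glucocorticoid-regulated kinase, rose by 1.30 on the log2 scale (SE 0.227, adjusted p = 0.000235), from 60.8 to 116 CPM in parental mice to 57.6 to 282 CPM in PS19 mice with overlap, and Syk, a tyrosine kinase of microglia and other myeloid cells, rose by 0.63 (adjusted p = 0.00253). The list median was -0.03, beside -0.01 over all genes and -0.07 over the 10 members.

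Of 26 tau phosphatase subunits, 4 were called lower and 2 higher over the 3 alleles, a share near that of all tested genes (21% called). Ppp2r2c and Ppp2r5a, regulatory subunits of protein phosphatase 2A, fell by 0.20 (edgeR adjusted p = 0.00120) and 0.12 (adjusted p = 0.0122) on the log2 scale. Ppp3r1, the regulatory subunit of calcineurin, fell by 0.21 (adjusted p = 0.00543), while Ppp2r2d, another 2A subunit, rose by 0.15 (adjusted p = 0.0259). The list median was -0.02.

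Of 23 tested regulators of the members, 5 were called lower and 2 higher over the 3 alleles, beside 21% of all tested genes called and 9.63% called lower. Capn2, which encodes the calpain 2 protease that can cleave p35, rose by 0.38 on the log2 scale (SE 0.0398, edgeR adjusted p = 4.57e-07). It ran from 80.8 to 92.1 CPM in the 9 parental mice and from 102 to 126 CPM in the 12 PS19 mice. Csk, the kinase that inhibits Fyn and other Src family members, rose by 0.27 (adjusted p = 0.000243). Apc, a microtubule-end protein and GSK3 partner, fell by 0.37 (SE 0.0602, adjusted p = 9.68e-05), and Strada, the pseudokinase partner of LKB1, which activates the MARK kinases, fell by 0.19 (adjusted p = 0.00294).

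Of 12 microtubule-associated proteins, 6 were called lower and none higher over the 3 alleles, beside 9.63% of all tested genes called lower, with a list median of -0.13. Map1b and Map1a, which bind axonal and dendritic microtubules, fell by 0.39 on the log2 scale (edgeR adjusted p = 0.000176) and 0.31 (adjusted p = 0.000904), Dpysl2, the collapsin response mediator CRMP2 and a GSK3 and CDK5 substrate, by 0.26 (adjusted p = 0.00278), and dendritic Map2 by 0.19 (adjusted p = 0.0123). By allele, the 4 lists held 5, 3, 6 and 4 called genes in PS/E4H relative to E4H, 1, 0, 1 and 2 in PS/E3H relative to E3H, and 0 in each in PS/E2H relative to E2H, beside 15.6%, 5.37% and 0.752% of all tested genes called in these comparisons. No gene of the 4 lists was called between APOE alleles in any of the 6 comparisons.

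**Figure D5:**
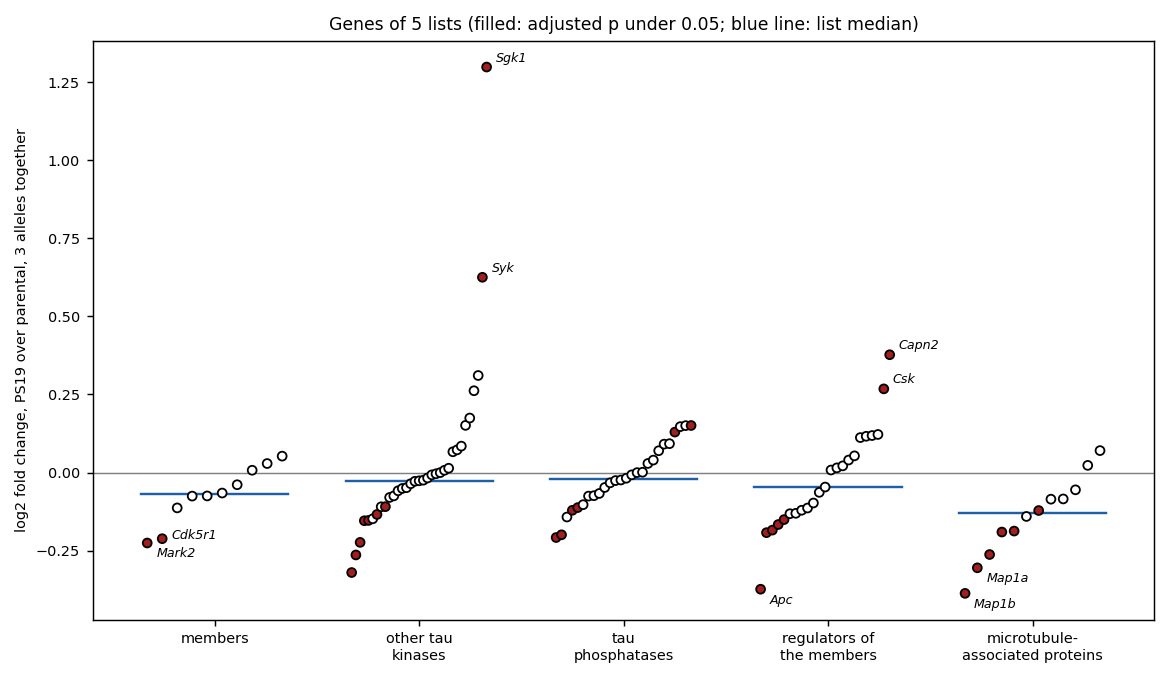
Log2 fold change over the 3 alleles, PS19 over parental mice, for each gene of the members and the 4 lists, ordered within each list, filled where the edgeR adjusted p was under 0.05, with the list median as a line. Sgk1 (1.30), Syk (0.63) and Capn2 (0.38) are the highest called genes, and Mark2 and Cdk5r1 are the filled members.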

How the data were processed

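RNA of frozen, pulverised forebrains was sequenced from poly(A) stranded libraries (paired reads). The authors trimmed reads with Cutadapt, aligned them with HISAT2 to mouse GRCm38 (GRCm38.p5 in the submitters' processing notes) and assembled transcripts with StringTie. The files deposited by the authors hold whole-number counts per gene and FPKM per gene; versions and how counts were made are not given in the sources used here. Positions, names and distances are from GENCODE M21 (GRCm38), which named 55141 of 55401 genes.

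Counts were tested with edgeR 4.0.16 (R 4.3.3; TMM, filterByExpr with a minimum count of 10, quasi-likelihood F test) on the mice of each comparison, or on all 21 with APOE allele and PS19 genotype as terms; the call was a Benjamini-Hochberg adjusted p under 0.05 over all tested genes. All 10 members passed the filter in every comparison. DESeq2 1.42.0, limma 3.58.1 on log2(FPKM + 1) and log2(FPKM + 0.1), other filters and factors, and fits without each mouse were alternatives. FPKM served for levels between genes. Steps were tested on simulated data. The members, lists and tests were chosen with earlier results of these data known. Named genes were all members and, of each list, of those called, the 4 with the lowest adjusted p at most, for the PS19 and the APOE comparisons separately; for 3 members, the nearest 3 genes by pattern. Some genes that this rule names are not reported here. At most 1.12% of 50-base windows of a member's transcripts (Gsk3a) also occurred in another gene, and the antisense gene over Gsk3a held 10709 counts in all, against 309689.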

Additional observations from a re-analysis of the deposited data

Results flagged for a closer look

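Of 30 sets of 4 PS19 mice (10 members in 3 groups) tested for a mouse far from the others of its group, 3 held one, and chance alone gives about 1 in 20. Cdk5r1 in PS/E3H replicate 1 was at 237.2 CPM, above the other 3 mice of the group (185.5 to 194.2 CPM). Mark4 in the same mouse was at 62.59 CPM, above the other 3 (51.12 to 52.62 CPM). Gsk3a in PS/E4H replicate 1 was at 195.1 CPM, below the other 3 (217.4 to 221.3 CPM). Groups of 3 parental mice were not tested in this way.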

How the results depend on the processing

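Over 3 alleles, 2 members were called in the main fit and 2 or 3 in each alternative other than the fold requirement and in each fit without 1 mouse (2 to 3). In PS/E4H relative to E4H the count was 2, and it was 3 with DESeq2 (Mark1 added), 1 with no filter on low counts, 1 with limma on log2(FPKM + 1), 1 with limma on log2(FPKM + 0.1), and 1 to 3 without 1 mouse, with Mark2 called in all 7 and Cdk5r1 in 2 of these fits; Cdk5r1 lost its call without E4H replicate 1, 2 or 3 or PS/E4H replicate 2 or 4 (adjusted p 0.1002, 0.162, 0.0616, 0.0797 and 0.0735). In PS/E3H relative to E3H the count was 0 and reached 4 without PS/E3H replicate 1 (0 to 4). With a fold of at least 2 required, it was 0 in each of the 10 comparisons other than the interactions. In the comparison of E2H and E3H the count was 0, and 1 (Cdk5) with parental and PS19 mice together. In the other 9 comparisons the count was 0 under each alternative run. Alternatives of the fit of parental and PS19 mice together are apart from these counts. There DESeq2 called Cdk5 (adjusted p = 0.0151) and Gsk3b (adjusted p = 0.0235) in APOE2 relative to APOE3 mice. It also called Cdk5 in APOE4 relative to APOE2 mice (adjusted p = 0.0303). Without PS/E2H replicate 3, edgeR called Gsk3b in the former (adjusted p = 0.0145) and Cdk5 in the latter (adjusted p = 0.0249). Same-numbered mice did not deviate together: correlations of 48 pairs ran from -0.288 to 0.342, and in 22 of 105 combinations of a mouse with another group the best match had its own number. With the replicate block, 0 members were called in PS/E4H relative to E4H (adjusted p = 0.062 for Mark2, 0.16 for Cdk5r1), and 2 over 3 alleles. Precision rests on 3 or 4 mice per group, not on depth.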
